A study of Mus musculus with 18 samples.

Results

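The Pitx1 knockout hindlimb was followed over 1 day of mouse development, from E11.5 to E12.5 (E, embryonic day). All hindlimb libraries labelled Pitx1 KO at these stages were taken, 3 at E11.5 and 3 at E12.5, which makes 6 of the 18 libraries of the series. PITX1 is a homeodomain transcription factor made in the hindlimb and not in the forelimb. The embryos carried the Pitx1-/- genotype, were of strain C57BL/6, and gave whole hindlimb RNA for stranded mRNA sequencing. The 6 wild-type hindlimb libraries of the same strain and stages, 3 a stage, were used only to show where the knockout differed. The labels state neither how the allele was made nor whether a replicate was 1 embryo or a pool. The p-values therefore set the difference between groups only against the spread among these libraries within a group. Part of that spread may be technical.

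Between these stages the limb bud turns from a patterned outgrowth into a limb with tissues. Signals from the apical ectodermal ridge, a strip of epithelium at the tip, and from the posterior zone that makes Sonic hedgehog keep the bud growing and then fade. Mesenchymal condensations become cartilage, joints appear between the elements, and muscle precursors that came from the somites fuse into fibres that assemble sarcomeres. The question the comparison answers is which of these steps the knockout limb still takes in that day.

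Expression levels are given as CPM, fragment counts relative to library size, scaled by the trimmed mean of M values (TMM) over the 12 libraries, and per-library values are always listed in the order of replicates 1, 2 and 3. A log2 fold change is E12.5 over E11.5, with its standard error (SE), and a gene is called where its adjusted p is below 0.05. Depth moved with the stage. The knockout libraries held 44986882 to 60672151 fragments at E11.5 and 22361170 to 29993146 at E12.5, and each stage came as a table of its own. Stage, table and depth cannot be told apart. With every library thinned to 22361170 fragments, 6369 genes were called against 6600 without thinning. In a principal component analysis of the 12 libraries the first component held 64.9% of the variance and set all E11.5 libraries apart from all E12.5 libraries. Markers of limb mesenchyme were present throughout. Prrx1, a homeobox gene of limb mesenchyme, measured 1259, 903 and 1151 CPM at E11.5 and 941, 865 and 809 CPM at E12.5. Tbx4, the T-box gene of the hindlimb, measured 64.3, 67.9 and 71.4 CPM at E11.5 and 75.1, 83.0 and 70.4 CPM at E12.5, and its forelimb counterpart Tbx5 reached at most 4.45 CPM (Tbx5 and Prrx1 stand here as a check of the tissue label).

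Pitx1 RNA, of the targeted gene, measured 57.6, 42.8 and 49.3 CPM at E11.5 and 25.4, 31.3 and 27.1 CPM at E12.5, so that the stages did not overlap (log2 change of -0.83 ± 0.12 SE with edgeR, adjusted p = 0.000832). With all 12 libraries in 1 fit this call was lost (adjusted p = 0.0607, edgeR). In the wild type it measured 339, 275 and 267 CPM at E11.5 and 267, 263 and 104 CPM at E12.5 (log2 change of -0.47 ± 0.38 SE with edgeR, adjusted p = 0.402). Whether the fragments left in the knockout come from outside the deleted part was not tested, since the labels do not give that part.

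Of 14660 genes tested, 6600 were called (45.0%), with 3153 higher at E12.5 (21.5%) and 3447 lower (23.5%). Rises were larger than falls. At least 2-fold changes numbered 1133 upward (7.73%) and 254 downward (1.73%), and at least 4-fold changes 388 (2.65%) and 52 (0.355%). The median log2 fold change over all genes tested was 0.00, so a list is read below against a centre at 0 and against those shares. The 3 libraries of each stage did not overlap for 57.9% of all genes. Many genes named below were picked for a small adjusted p or for no overlap, so their separation adds no support. Within both stages the libraries differed from each other. Knockout E12.5 replicate 3 held the highest E12.5 value for 61 of 61 sarcomere genes and for none of 39 mitosis genes, and its value on the first component, 30.3, was the highest of the knockout libraries. Knockout E11.5 replicate 1 lay at -31.2 on that component, against -44.6 and -45.5 for replicates 2 and 3. It held the highest E11.5 value for 30 of 37 BMP and TGF-beta genes and 28 of 40 cartilage genes, and for 3 of 39 mitosis genes. Without it 6844 genes were called. Knockout E11.5 replicate 2 stood out in other lists, with the highest E11.5 value for 22 of 23 red cell genes and 20 of 25 ribosome genes. Leaving out E11.5 replicate 2 gave 6085 called genes. The counts of each main list are also given without E12.5 replicate 3. Without E12.5 replicate 3, 4979 genes were called.

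**Figure D1:**
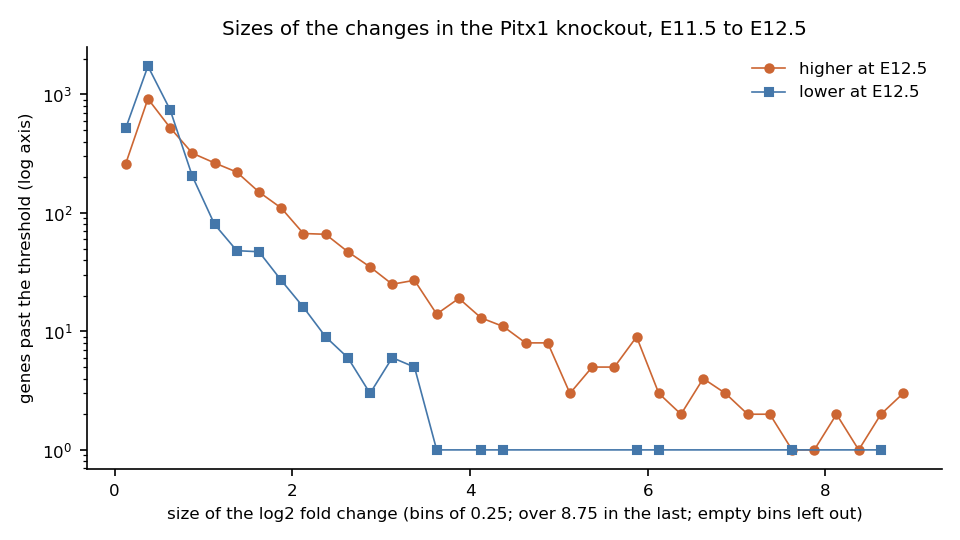
Number of called genes (log axis) by the size of their log2 fold change in the knockout, in bins of 0.25, for genes higher (circles) and lower (squares) at E12.5. Falls are more frequent at small sizes, and past 4-fold there are 388 rises and 52 falls.

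Muscle fibre genes had the highest median change of the 33 lists. Of 61 tested members of a list of sarcomere and contraction genes, 59 rose and none fell, with a median log2 fold change of 4.48. Of these members, 20 passed the filter on low values only through their E12.5 libraries and so had to differ. Among the 29 that lay above the filter's floor in all 6 libraries, 27 rose, with a median of 3.09. Without E12.5 replicate 3, 54 of 61 rose with a median of 3.99. The summed level of the list was 427 to 494 CPM at E11.5 and 1411, 1638 and 2650 CPM at E12.5.

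Promoter sequences are shown for the 3 sarcomere genes with the smallest adjusted p that hold a CAGCTG hexamer, an E-box of the kind that myogenic regulatory factors such as MYOD1 can bind. Each stretch holds the 250 bases before the start of the gene in RefSeq (build GRCm38.p6, while the counts were made on mm9), with the hexamer in capitals.
Myl1, chr1:66945057-66945306, minus strand: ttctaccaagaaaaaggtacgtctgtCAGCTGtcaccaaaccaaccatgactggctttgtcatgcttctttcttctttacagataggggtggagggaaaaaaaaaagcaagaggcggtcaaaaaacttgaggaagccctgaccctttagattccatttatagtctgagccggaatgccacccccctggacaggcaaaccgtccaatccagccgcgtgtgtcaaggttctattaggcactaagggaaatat
Tnnt2, chr1:135836084-135836333, plus strand: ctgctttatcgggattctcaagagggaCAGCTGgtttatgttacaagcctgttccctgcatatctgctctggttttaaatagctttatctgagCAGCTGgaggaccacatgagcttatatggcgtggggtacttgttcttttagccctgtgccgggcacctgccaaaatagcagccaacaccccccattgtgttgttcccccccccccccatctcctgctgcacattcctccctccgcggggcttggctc
Atp2a1, chr7:126463074-126463323, minus strand: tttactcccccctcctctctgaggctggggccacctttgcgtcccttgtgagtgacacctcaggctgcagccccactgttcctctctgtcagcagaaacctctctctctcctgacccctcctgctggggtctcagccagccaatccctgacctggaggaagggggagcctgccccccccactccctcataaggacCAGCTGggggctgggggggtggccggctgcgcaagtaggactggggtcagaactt
The hexamer reads the same on both strands. Windows of 300 bases, from 250 before to 50 after the start, were searched for 51 sarcomere genes with an entry. It stood in 26 of their 60 windows (43.3%), against 5355 of all 32851 windows of the table (16.3%). A match is a description of the letters and no measure of binding.

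The genes behind these promoters rose in step. Myl1, a fast myosin light chain, measured 0.376, 0.334 and 0.117 CPM at E11.5 and 10.3, 11.2 and 21.3 CPM at E12.5 (log2 change of 5.63 ± 0.45 SE with edgeR, adjusted p = 0.000171). Tnnt2, a troponin of the thin filament made in early muscle as well as heart, measured 0.547, 0.264 and 0.140 CPM at E11.5 and 10.6, 13.7 and 22.6 CPM at E12.5 (log2 change of 5.56 ± 0.48 SE with edgeR, adjusted p = 0.000257). Atp2a1, the calcium pump of the fast fibre's reticulum, measured 3.16, 1.74 and 2.50 CPM at E11.5 and 23.8, 24.6 and 42.2 CPM at E12.5 (log2 change of 3.61 ± 0.31 SE with edgeR, adjusted p = 0.000298). For each of the 3 genes all E12.5 libraries lay above all E11.5 libraries, and replicate 3 was the highest of its stage. The stages did not overlap for 57.9% of all genes tested.

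All 6 tested myosin heavy chains rose, but 4 of them passed the filter only through E12.5 and none lay above its floor in all 6 libraries. Myh3, the embryonic heavy chain, measured 1.35, 2.21 and 0 CPM at E11.5 and 79.4, 118 and 225 CPM at E12.5 (log2 change of 6.80 ± 0.90 SE with edgeR, adjusted p = 0.00366), and Myh8, the perinatal chain, measured 0, 0.105 and 0 CPM at E11.5 and 2.23, 5.77 and 11.3 CPM at E12.5 (log2 change of 7.30 ± 1.04 SE with edgeR, adjusted p = 0.00185). Myh3 was at 0 in 1 library at E11.5 and Myh8 in 2, while all E12.5 values were clearly above. Actins and actinins rose 8 of 8, 2 of them tested only through E12.5 (median 4.74 for the 5 above the floor in all 6 libraries). Acta1, the skeletal actin, measured 0.256, 0.299 and 0 CPM at E11.5 and 20.2, 28.4 and 56.2 CPM at E12.5 (log2 change of 7.43 ± 0.76 SE with edgeR, adjusted p = 0.00136). Actn3, an actinin of the fast Z disc, was already at 1.99 to 2.61 CPM at E11.5 and reached 12.7, 11.47 and 17.7 CPM (log2 change of 2.65 ± 0.21 SE with edgeR, adjusted p = 0.000132).

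Troponins and tropomyosins rose 9 of 9, 1 of them tested only through E12.5 (median 3.19 for the 7 above the floor). Tnni1, the slow troponin I, measured 0.820, 0.878 and 0.537 CPM at E11.5 and 13.2, 18.8 and 41.9 CPM at E12.5 (log2 change of 5.02 ± 0.55 SE with edgeR, adjusted p = 0.00105), and Tnni2, the fast form, measured 0.564, 0.457 and 0.350 CPM at E11.5 and 2.01, 2.96 and 5.40 CPM at E12.5 (log2 change of 2.90 ± 0.42 SE with edgeR, adjusted p = 0.000728). Of 18 giant and scaffold proteins 10 passed the filter only through E12.5, and the 7 above its floor in all 6 libraries all rose (median 3.46). The list holds Mypn and Myot, both proteins of the Z disc. Myot had 1 fragment over the E11.5 libraries and 193 over the E12.5 libraries (ratio per scaled depth 398, exact 95% interval 70.6 to 15810, for counting error alone). The chaperones of myosin folding rose too, Unc45b from 0.478, 0.439 and 0.234 to 11.8, 13.1 and 22.3 CPM (log2 change of 5.31 ± 0.35 SE with edgeR, adjusted p = 0.000118) and Smyd1 from 1.06, 0.562 and 0.537 to 15.8, 18.8 and 33.5 CPM (log2 change of 4.95 ± 0.41 SE with edgeR, adjusted p = 0.000255). Calcium handling and energy genes rose 13 of 15, 3 of them tested only through E12.5 (median 1.13 for the 8 above the floor). Casq2, which stores calcium, rose by 6.69 and Sln, a regulator of the calcium pump, by 6.96 on the log2 scale. The 2 members that did not pass were Srl at 0.31 and Eno3 at -0.15, named after their values were seen.

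All 11 tested genes of the neuromuscular junction rose, with a median log2 fold change of 2.52 (8 of 11 without E12.5 replicate 3, median 1.97). Of these, 1 passed the filter only through E12.5. The 6 above its floor in all 6 libraries all rose, with a median of 1.79. The 4 acetylcholine receptor subunits had a median of 2.71. Chrna1, the subunit that binds acetylcholine, measured 1.74, 1.76 and 2.13 CPM at E11.5 and 12.9, 11.01 and 17.9 CPM at E12.5 (log2 change of 2.90 ± 0.22 SE with edgeR, adjusted p = 0.000118), and Chrng, the fetal subunit, measured 0.854, 0.0878 and 0.350 CPM at E11.5 and 6.65, 8.60 and 14.2 CPM at E12.5 (log2 change of 4.48 ± 0.69 SE with edgeR, adjusted p = 0.00259). The genes that cluster receptors under the nerve ending moved the same way. Musk, the muscle kinase of that pathway, rose from at most 0.154 CPM to 1.44, 1.596 and 4.93 CPM (log2 change of 5.49 ± 1.03 SE with edgeR, adjusted p = 0.00410), Dok7, its adaptor, by 3.38 and Rapsn, the scaffold of the receptors, by 4.22 on the log2 scale (adjusted p = 0.000940 and 0.000151, edgeR). Of 11 axon and neuron genes, measured for the nerve side, 2 rose and 4 fell, against 21.5% and 23.5% of all genes. Their median was -0.29.

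Regulators of the muscle lineage split. Of 28 tested, 13 rose, 4 fell and 11 did not pass, with a median of 0.27 (12 and 4 without E12.5 replicate 3). Of these 28, 1 was tested only through E12.5, and the median was 0.16 for the 26 above the floor in all 6 libraries. Myod1 measured 10.03, 4.90 and 8.198 CPM at E11.5 and 32.4, 28.4 and 44.7 CPM at E12.5 (log2 change of 2.19 ± 0.30 SE with edgeR, adjusted p = 0.00165), and Myog, which commits myoblasts to fuse, measured 9.79, 4.85 and 3.95 CPM at E11.5 and 66.4, 65.8 and 112 CPM at E12.5 (log2 change of 3.70 ± 0.45 SE with edgeR, adjusted p = 0.00256). Tmem8c, the fusion protein also called myomaker, measured 1.28, 0.457 and 0.467 CPM at E11.5 and 8.61, 10.03 and 15.8 CPM at E12.5 (log2 change of 3.94 ± 0.45 SE with edgeR, adjusted p = 0.000507). The stages of these 3 genes did not overlap, as for 57.9% of all genes tested. Mef2c rose by 1.64, Cdh15, a cadherin of myoblasts, by 2.15, and Vgll2, a cofactor of muscle genes, by 2.90 on the log2 scale.

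Pax3, which marks precursors on their way into the limb, measured 4.10, 7.57 and 9.46 CPM at E11.5 and 3.28, 2.28 and 2.98 CPM at E12.5 (log2 change of -1.31 ± 0.31 SE with edgeR, adjusted p = 0.00843), a call lost with limma voom (adjusted p = 0.0529). Six4, a homeobox gene upstream of the myogenic factors, measured 61.2, 61.1 and 62.3 CPM at E11.5 and 43.9, 41.4 and 38.9 CPM at E12.5 (log2 change of -0.57 ± 0.068 SE with edgeR, adjusted p = 0.000330). Myf5, expressed in early myoblasts, measured 3.66, 4.99 and 8.08 CPM at E11.5 and 5.42, 5.41 and 6.74 CPM at E12.5 and its stages overlapped (log2 change of 0.07 ± 0.28 SE with edgeR, adjusted p = 0.848). Pax7, which marks the fetal precursors that follow those of Pax3, appeared instead: it measured 0.393, 0.211 and 0.0934 CPM at E11.5 and 2.67, 2.997 and 8.25 CPM at E12.5 (log2 change of 4.25 ± 0.62 SE with edgeR, adjusted p = 0.00109). The levels of Pax3 and Pax7 thus crossed in direction within the day, on very low values for Pax7 at E11.5.

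**Figure D2:**
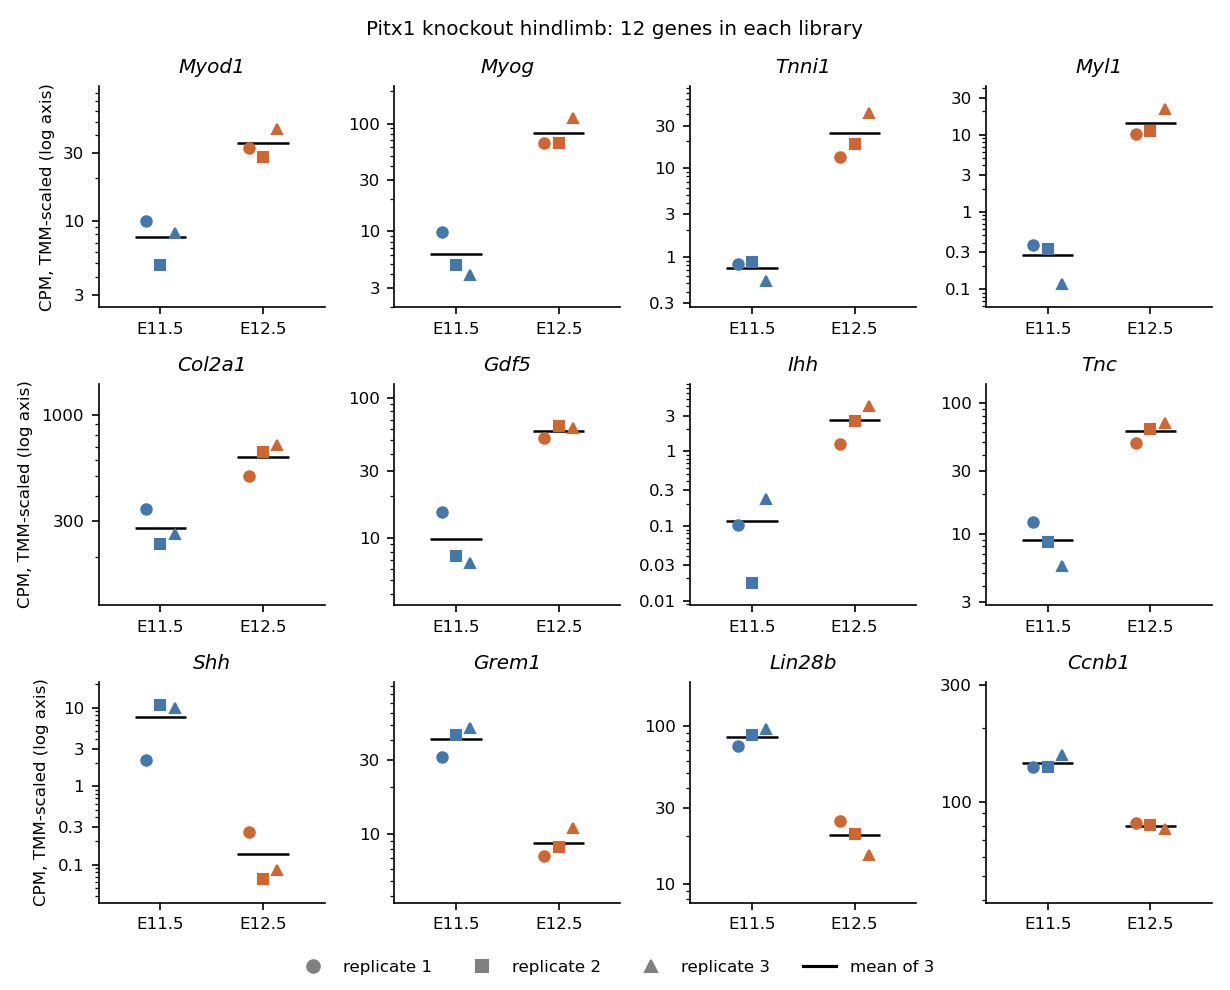
Level of 12 genes in each knockout library, as CPM on a log axis with its own range per gene, by stage, with 1 symbol per replicate and a line at the mean of 3. For all 12 genes the E12.5 libraries lie wholly above (top and middle rows) or below (bottom row) the E11.5 libraries. The stages do not overlap for 57.9% of all genes tested.

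Cartilage genes rose as well. Of 40 tested, 29 rose and 1 fell, with a median of 1.26, against 21.5% and 23.5% of all genes (23 and 2 without E12.5 replicate 3, median 1.21). Of these members, 4 passed the filter only through E12.5 and so had to differ. Among the 31 above its floor in all 6 libraries, 23 rose and 1 fell, with a median of 0.89. The regulators moved least. Sox9, the main regulator of cartilage fate, measured 138, 100.2 and 122 CPM at E11.5 and 167, 228 and 189 CPM at E12.5 (log2 change of 0.70 ± 0.15 SE with edgeR, adjusted p = 0.00844). Wwp2, a ubiquitin ligase gene that hosts a microRNA of cartilage, measured 126, 97.5 and 121 CPM at E11.5 and 242, 291 and 297 CPM at E12.5 (log2 change of 1.27 ± 0.11 SE with edgeR, adjusted p = 0.000221). Both were higher in every E12.5 library than in any E11.5 library, and 57.9% of all genes had stages that did not overlap.

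The cartilage matrix followed. Of 8 collagens 7 rose, with a median of 1.72. One of the 8 was tested only through E12.5, and the median was 1.16 for the 7 above the floor in all 6 libraries. Col2a1, the main collagen of cartilage, measured 345, 232 and 259 CPM at E11.5 and 504, 656 and 713 CPM at E12.5 (log2 change of 1.16 ± 0.19 SE with edgeR, adjusted p = 0.00423), and Col9a1, which coats its fibrils, rose by 1.10 on the log2 scale (adjusted p = 0.000311, edgeR). Acan, the large proteoglycan of cartilage, measured 0.854, 0.0703 and 0.117 CPM at E11.5 and 3.59, 11.2 and 15.5 CPM at E12.5 (log2 change of 4.80 ± 1.02 SE with edgeR, adjusted p = 0.0135). Its E11.5 replicate 1 stood well above the other two, and the E12.5 libraries also spread widely. With replicate number as a block the call on Acan was lost (adjusted p = 0.103, edgeR). Matn1, another matrix protein, was too low for a test, with 0.437, 0.0651 and 3.41 CPM at E12.5. Of 7 growth plate genes 6 rose, with a median of 1.24. The median was 0.89 for the 5 above the floor in all 6 libraries, and 1 gene was tested only through E12.5. Ihh, the hedgehog of the growth plate, measured 0.103, 0.0176 and 0.234 CPM at E11.5 and 1.27, 2.54 and 4.02 CPM at E12.5 (log2 change of 4.51 ± 0.71 SE with edgeR, adjusted p = 0.00125). Col10a1, the collagen of hypertrophic cartilage, went from 2 to 108 fragments over the libraries of a stage (ratio per scaled depth 111, exact 95% interval 30.1 to 932, for counting error alone).

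Joint genes rose in 11 of 16 cases and fell in 1, with a median of 0.86 (9 and 1 without E12.5 replicate 3). Gdf5, the growth factor that marks the joint interzone, measured 15.3, 7.47 and 6.66 CPM at E11.5 and 51.3, 62.9 and 60.9 CPM at E12.5 (log2 change of 2.57 ± 0.35 SE with edgeR, adjusted p = 0.00276). Chrdl2, an inhibitor of bone morphogenetic proteins (BMPs), measured 0.308, 0.141 and 0.280 CPM at E11.5 and 3.41, 3.39 and 4.06 CPM at E12.5 (log2 change of 3.89 ± 0.36 SE with edgeR, adjusted p = 0.000166), and Nog, another one, measured 3.02, 1.21 and 1.89 CPM at E11.5 and 8.05, 15.2 and 12.97 CPM at E12.5 (log2 change of 2.56 ± 0.37 SE with edgeR, adjusted p = 0.00115). Erg, a transcription factor of joint cartilage and also of endothelium, rose by 1.79 on the log2 scale. All 4 were higher in every E12.5 library, and 57.9% of all genes had stages that did not overlap.

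Bone genes moved less evenly, with 8 of 16 higher, 2 lower and a median of 0.73 (6 and 2 without E12.5 replicate 3). Runx2, the master regulator of osteoblasts, measured 3.83, 8.19 and 5.68 CPM at E11.5 and 7.91, 10.4 and 15.1 CPM at E12.5, and its stages overlapped (log2 change of 0.91 ± 0.32 SE with edgeR, adjusted p = 0.0501). Sp7, which acts after it, lay higher in every E12.5 library at 2.10, 2.31 and 3.20 against 1.40, 1.69 and 1.47 CPM and did not pass either (log2 change of 0.74 ± 0.27 SE with edgeR, adjusted p = 0.0512). In the wild type both passed, with log2 fold changes of 1.04 and 1.24 (adjusted p = 0.00501 and 0.00649, edgeR) and the test of the difference gave adjusted p = 0.931 and 0.591 (edgeR). Sparc, a matrix glycoprotein of bone and connective tissue, rose by 1.43 and Dlx6, a homeobox gene shared with the ridge, by 2.10. Twist1, which holds back osteoblast differentiation and marks mesenchyme, fell from 196, 224 and 204 to 154, 160.2 and 153 CPM (log2 change of -0.41 ± 0.062 SE with edgeR, adjusted p = 0.000831).

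Connective tissue rose broadly, with 22 of 27 genes higher, 1 lower and a median of 1.30 (17 and 1 without E12.5 replicate 3). Tnc, a glycoprotein of tendon and perichondrium, measured 12.4, 8.64 and 5.70 CPM at E11.5 and 49.4, 62.9 and 70.0 CPM at E12.5 (log2 change of 2.76 ± 0.30 SE with edgeR, adjusted p = 0.00111). Mkx, a homeobox gene of tendon, measured 17.8, 10.8 and 10.6 CPM at E11.5 and 34.5, 44.5 and 35.9 CPM at E12.5 (log2 change of 1.55 ± 0.22 SE with edgeR, adjusted p = 0.00152), and Scx, the earliest tendon regulator, measured 31.2, 37.6 and 33.05 CPM at E11.5 and 32.8, 30.1 and 35.6 CPM at E12.5 with overlapping stages (log2 change of -0.05 ± 0.096 SE with edgeR, adjusted p = 0.697). Tnmd, a late tendon marker, stayed below 1 CPM in all 6 libraries (log2 change of 1.71 ± 0.52 SE with edgeR, adjusted p = 0.0230), and this call was lost without E11.5 replicate 2 or 3 or E12.5 replicate 2 or 3 (adjusted p from 0.0645 to 0.102, edgeR) and with all 12 libraries in 1 fit (0.167). In the wild type Tnmd went from 0.103, 0.0974 and 0.104 to 1.65, 3.26 and 21.5 CPM. Matrix and its remodelling enzymes rose in 32 of 42 cases and fell in 1, with a median of 0.77 (24 and 2 without E12.5 replicate 3). Adamts5, a protease that cuts proteoglycans, measured 8.51, 5.52 and 4.93 CPM at E11.5 and 34.5, 45.2 and 39.5 CPM at E12.5 (log2 change of 2.65 ± 0.21 SE with edgeR, adjusted p = 0.000196), and Loxl2, which cross-links collagen, rose by 1.29 on the log2 scale.

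**Figure D3:**
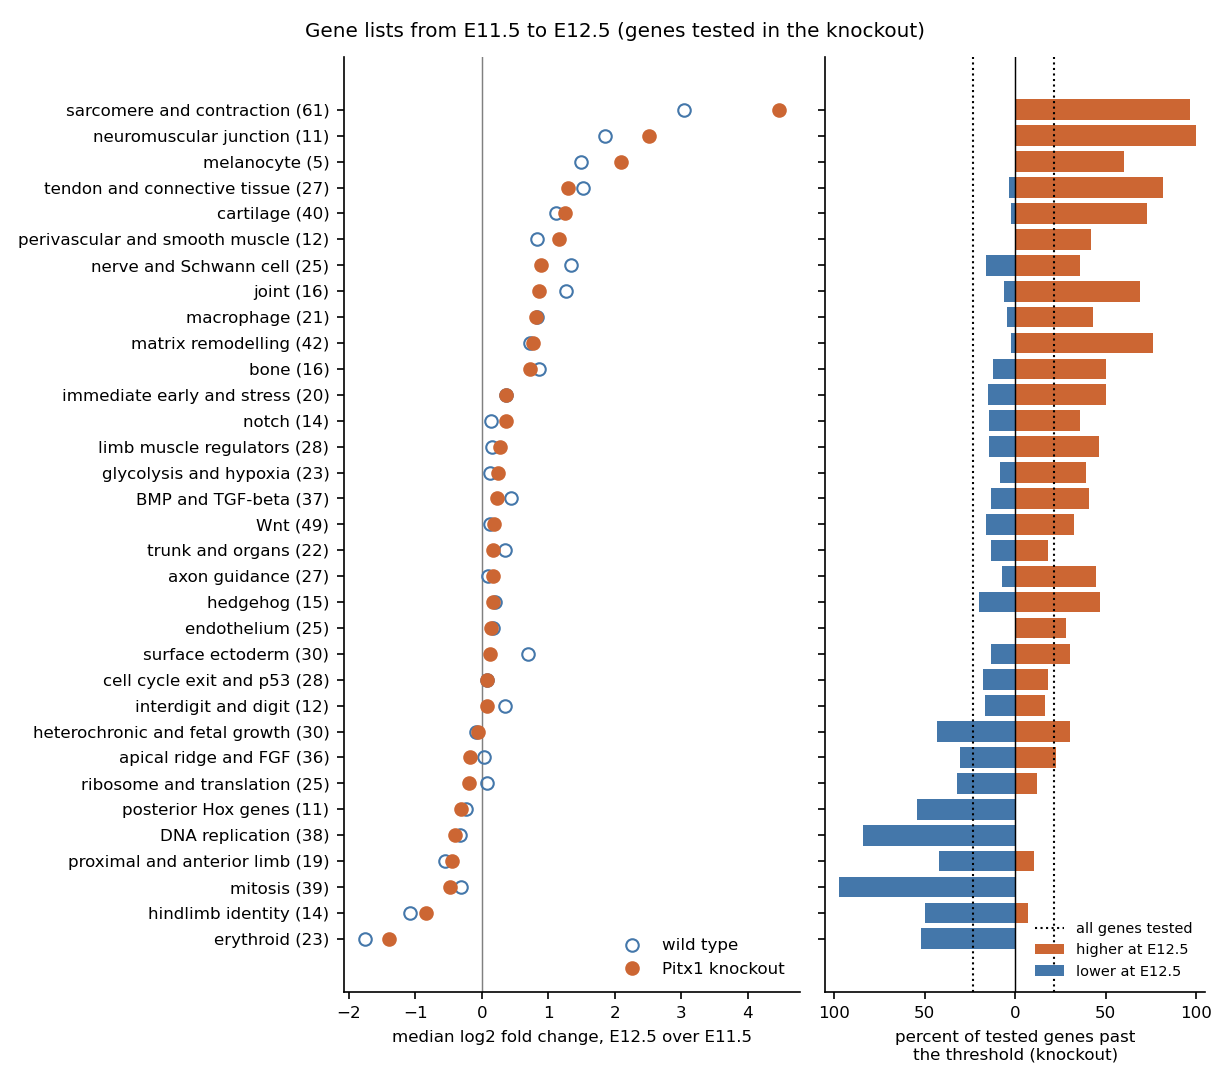
Left, the median log2 fold change of each of 33 gene lists in the knockout (filled) and the wild type (open), with the number of genes tested in the knockout in brackets. Wild-type medians are over the genes tested in the wild type. Right, the percent of those genes called higher or lower in the knockout, with the shares over all genes, 21.5% and 23.5%, as dotted lines. Sarcomere and neuromuscular genes lie at the top, erythroid, hindlimb identity and mitosis genes at the bottom.

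The proliferation genes fell together, by small and tight amounts. Of 39 mitosis genes 38 fell, none rose and the median was -0.47 (37 without E12.5 replicate 3, median -0.44), and of 38 DNA replication genes 32 fell and none rose, with a median of -0.41 (28 without it, median -0.38). The promoters of 4 mitosis genes are shown, the 3 with the smallest adjusted p that hold CCAAT or TTTGAA and the first in that order that holds both, which was added after its values were seen. CCAAT is the box bound by the factor NF-Y, and TTTGAA is the core of the element that DREAM and the MYB-MuvB complex bind in cell cycle promoters. Both are in capitals on either strand (ATTGG and TTCAAA on the reverse), over the same 250 bases.
Cenpe, chr3:135212313-135212562, plus strand: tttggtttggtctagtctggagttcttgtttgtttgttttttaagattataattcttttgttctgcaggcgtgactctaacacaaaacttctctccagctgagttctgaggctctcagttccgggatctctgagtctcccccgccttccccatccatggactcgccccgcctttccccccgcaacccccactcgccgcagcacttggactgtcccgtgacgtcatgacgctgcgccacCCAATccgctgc
Ccnb1, chr13:100786487-100786736, minus strand: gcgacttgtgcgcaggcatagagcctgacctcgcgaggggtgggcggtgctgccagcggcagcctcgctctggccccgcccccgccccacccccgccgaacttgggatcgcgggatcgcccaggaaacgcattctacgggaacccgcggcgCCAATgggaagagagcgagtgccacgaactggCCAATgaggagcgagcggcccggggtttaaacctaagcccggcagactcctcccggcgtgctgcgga
Bub1, chr2:127831860-127832109, minus strand: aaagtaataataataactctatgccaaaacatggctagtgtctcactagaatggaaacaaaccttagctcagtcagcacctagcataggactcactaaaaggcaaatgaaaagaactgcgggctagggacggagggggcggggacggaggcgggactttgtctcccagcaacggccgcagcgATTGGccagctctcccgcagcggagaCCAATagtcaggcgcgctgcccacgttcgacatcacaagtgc
Ect2, chr3:27153879-27154128, minus strand: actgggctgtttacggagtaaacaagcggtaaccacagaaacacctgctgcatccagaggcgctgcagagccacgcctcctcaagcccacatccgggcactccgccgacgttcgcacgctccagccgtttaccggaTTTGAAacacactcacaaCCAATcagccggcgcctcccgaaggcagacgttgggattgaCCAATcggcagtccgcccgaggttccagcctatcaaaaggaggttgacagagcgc
In the 300-base windows of 30 mitosis genes with an entry, TTTGAA stood in 25 of 32 (78.1%), against 17.9% of all windows, and CCAAT in 27 of 32 (84.4%), against 37.4%. The windows of Cenpe, Ccnb1 and Bub1 hold no TTTGAA, which says only that these letters are not there.

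Ccnb1, the mitotic cyclin, measured 139, 139 and 155 CPM at E11.5 and 82.0, 80.7 and 77.8 CPM at E12.5 (log2 change of -0.85 ± 0.064 SE with edgeR, adjusted p = 0.000118). Bub1, a kinase of the spindle checkpoint, measured 287, 315 and 329 CPM at E11.5 and 170.2, 168 and 156 CPM at E12.5 (log2 change of -0.92 ± 0.066 SE with edgeR, adjusted p = 0.000118), and Cenpe, a kinetochore motor, measured 276, 259 and 264 CPM at E11.5 and 155, 158 and 149 CPM at E12.5 (log2 change of -0.79 ± 0.053 SE with edgeR, adjusted p = 0.000107). Ect2, which starts cytokinesis, fell by 0.86 and Smc4, a condensin subunit, by 0.73 on the log2 scale. The libraries of a stage lay close together for these genes, and the stages were far apart. Mki67, the common proliferation marker, fell less (log2 change of -0.47 ± 0.085 SE with edgeR, adjusted p = 0.00212). The one mitosis gene that did not pass, named for that reason, was Ncapd2 at -0.02.

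Among replication genes Dut, which keeps uracil out of DNA, measured 179, 204 and 207 CPM at E11.5 and 82.7, 91.7 and 91.2 CPM at E12.5 (log2 change of -1.15 ± 0.073 SE with edgeR, adjusted p = 0.000102). Rrm1, a subunit of ribonucleotide reductase, measured 607, 712 and 666 CPM at E11.5 and 443, 439 and 426 CPM at E12.5 (log2 change of -0.60 ± 0.066 SE with edgeR, adjusted p = 0.000257), and Ccne2, a cyclin of the entry into S phase, fell by 0.85 on the log2 scale. Of 12 CDK inhibitors and related genes 4 rose and 1 fell, against 21.5% and 23.5% of all genes, with a median of 0.18. Cdkn1a (p21) measured 13.9, 14.9 and 13.2 CPM at E11.5 and 20.2, 23.1 and 34.1 CPM at E12.5 (log2 change of 0.88 ± 0.18 SE with edgeR, adjusted p = 0.00467), with E12.5 replicate 3 highest. Pmaip1 (Noxa), a BH3 protein of cell death under control of p53, had the deepest fall among the cell death and p53 genes. It measured 296, 329.7 and 332 CPM at E11.5 and 63.2, 59.0 and 39.8 CPM at E12.5 (log2 change of -2.56 ± 0.17 SE with edgeR, adjusted p = 0.000198). Of the 16 genes of that group 4 fell, near the share of 23.5% over all genes, and 1 rose, against 21.5%. Over both groups 5 rose and 5 fell, against 8 and 5 without E11.5 replicate 1 and 3 and 5 without E11.5 replicate 3.

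The Lin28 and let-7 network, which times development from early to late, fell in 9 of 12 cases, with no rise and a median of -0.62. Lin28b, an RNA-binding protein that blocks let-7 microRNAs, measured 74.3, 86.7 and 94.9 CPM at E11.5 and 24.8, 20.6 and 15.1 CPM at E12.5 (log2 change of -2.08 ± 0.18 SE with edgeR, adjusted p = 0.000272). Its paralogue Lin28a was already low and measured 2.32, 4.48 and 3.55 CPM at E11.5 and 0.394, 0.228 and 0.389 CPM at E12.5 (log2 change of -3.37 ± 0.38 SE with edgeR, adjusted p = 0.000286). The let-7 targets Hmga2, a chromatin protein, and Trim71, an RNA-binding ubiquitin ligase, fell from 1068, 1439.5 and 1308 to 717, 648 and 665 CPM and from 10.99, 11.6 and 15.3 to 4.81, 4.10 and 2.85 CPM (log2 fold changes -0.91 and -1.68, adjusted p = 0.000356 and 0.000448, edgeR). In all 4 genes the highest E12.5 library was below the lowest E11.5 library, and 57.9% of all genes had stages that did not overlap. Imprinted and insulin-like growth factor genes were mixed, with 9 of 18 higher and 4 lower. Igf2, the fetal growth factor, rose by 0.34 on the log2 scale (adjusted p = 0.00656, edgeR).

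Shh, the hedgehog ligand of the posterior zone, measured 2.19, 10.8 and 9.996 CPM at E11.5 and 0.262, 0.0651 and 0.0864 CPM at E12.5 (log2 change of -5.83 ± 0.88 SE with edgeR, adjusted p = 0.00238), with E11.5 replicate 1 well below the other two. With limma voom the call on Shh was lost (adjusted p = 0.108). Of 15 hedgehog pathway genes 7 rose and 3 fell, against 21.5% and 23.5% of all genes. The coreceptors Cdon and Boc rose by 0.63 and 0.55 on the log2 scale. Gli2, a transcription factor of the pathway, rose by 0.51.

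Of 36 ridge and fibroblast growth factor (FGF) genes 8 rose and 11 fell (6 and 11 without E12.5 replicate 3), near the shares over all genes, 21.5% and 23.5%. Fgf8, the main ligand of the ridge, measured 11.7, 13.9 and 15.3 CPM at E11.5 and 3.89, 2.67 and 3.11 CPM at E12.5 (log2 change of -2.08 ± 0.19 SE with edgeR, adjusted p = 0.000160). Fgf10, the mesenchymal ligand that maintains it, measured 42.9, 42.6 and 56.2 CPM at E11.5 and 27.4, 30.3 and 23.9 CPM at E12.5 (log2 change of -0.79 ± 0.13 SE with edgeR, adjusted p = 0.00152). Of 11 targets and inhibitors of the pathway 5 fell and none rose: Dusp6, a phosphatase induced by FGF signalling, measured 203, 233 and 257 CPM at E11.5 and 121, 114 and 114.7 CPM at E12.5 (log2 change of -0.98 ± 0.084 SE with edgeR, adjusted p = 0.000150), and Spry4, a feedback inhibitor, fell by 0.72 on the log2 scale. The later ligand Fgf7 rose from below 1 CPM to 2.71, 2.96 and 4.54 CPM (log2 change of 2.36 ± 0.33 SE with edgeR, adjusted p = 0.000624). For Fgf8 and Dusp6 each E12.5 library lay below every E11.5 library, and 57.9% of all genes had stages that did not overlap. The 8 tested ridge ligands had 2 rises, 2 falls and a median of 0.12.

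Grem1, the BMP inhibitor that links the posterior zone to the ridge, measured 31.5, 43.1 and 47.8 CPM at E11.5 and 7.26, 8.24 and 10.9 CPM at E12.5 (log2 change of -2.21 ± 0.20 SE with edgeR, adjusted p = 0.000255). BMP and transforming growth factor beta (TGF-beta) genes, Grem1 among them, rose in 15 of 37 cases, fell in 5 and did not pass in 17. Tgfb3, a ligand, rose by 0.73 and Fstl1, a secreted BMP antagonist, by 0.97 on the log2 scale. The 2 receptor chains parted: Tgfbr2 rose from 47.7, 35.3 and 41.6 to 81.5, 99.5 and 97.8 CPM while Tgfbr1 fell from 429, 425 and 438 to 299.8, 297 and 259 CPM (adjusted p = 0.000274 and 0.000257, edgeR). In the Wnt pathway 16 of 49 genes rose and 8 fell, against 21.5% and 23.5% of all genes. The receptor Fzd9 rose by 2.41 and Lgr5, a receptor of R-spondins, by 1.36, while Fzd3 fell by 0.67 and Sost, a secreted inhibitor, by 1.36 on the log2 scale.

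Genes of the list named hindlimb identity fell in 7 of 14 cases and rose in 1, with a median of -0.83 (7 and 0 without E12.5 replicate 3, and 4 falls without E12.5 replicate 2). The list also holds the forelimb gene Tbx5 and the early limb bud gene Sall4, so its counts do not measure hindlimb identity as such. In the wild type 10 of the 14 fell and none rose, with a median of -1.08. Tbx4, given above, changed by 0.17 ± 0.077 (SE) and did not pass (adjusted p = 0.104, edgeR). Hoxc9 measured 7.37, 8.06 and 8.52 CPM at E11.5 and 3.41, 2.61 and 3.72 CPM at E12.5 (log2 change of -1.30 ± 0.19 SE with edgeR, adjusted p = 0.000749), and Hoxc6 measured 6.55, 6.29 and 4.95 CPM at E11.5 and 2.97, 1.37 and 1.86 CPM at E12.5 (log2 change of -1.53 ± 0.29 SE with edgeR, adjusted p = 0.00250). Hoxc10, a HoxC gene of the hindlimb, measured 104, 109.6 and 114 CPM at E11.5 and 69.7, 39.9 and 71.7 CPM at E12.5 (log2 change of -0.85 ± 0.22 SE with edgeR, adjusted p = 0.0234), a call lost without E11.5 replicate 1 or 2 (adjusted p = 0.0586 and 0.0757, edgeR). Sall4, a zinc finger gene of early limb buds, measured 13.9, 20.5 and 16.3 CPM at E11.5 and 7.21, 3.58 and 1.77 CPM at E12.5 (log2 change of -2.02 ± 0.47 SE with edgeR, adjusted p = 0.0146), a call lost without E12.5 replicate 2 (adjusted p = 0.0694, edgeR). The single riser was Tbx5, at 1.196, 1.77 and 0.467 CPM and 2.67, 2.70 and 4.45 CPM (log2 change of 1.495 ± 0.45 SE with edgeR, adjusted p = 0.0237), named after its values were seen. Its call was lost without E11.5 replicate 1, without E12.5 replicate 3 and with replicate number as a block, where the list had 0 rises.

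Among posterior Hox genes, which set the proximal, middle and distal segments, 6 of 11 fell and none rose (median -0.31). Hoxa9 measured 171, 126 and 169 CPM at E11.5 and 82.8, 79.4 and 74.2 CPM at E12.5 (log2 change of -0.98 ± 0.11 SE with edgeR, adjusted p = 0.000442) and Hoxd9 27.99, 20.6 and 27.7 CPM at E11.5 and 16.5, 15.02 and 15.3 CPM at E12.5 (log2 change of -0.71 ± 0.13 SE with edgeR, adjusted p = 0.00219). Hoxd11 fell by 0.53 and Hoxa11 by 0.33 on the log2 scale. The genes of the hand and foot plate, Hoxa13 and Hoxd13, had overlapping stages and log2 fold changes of -0.31 and 0.31 that did not pass (adjusted p = 0.0818 and 0.106, edgeR).

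Of 19 genes of proximal and anterior limb 8 fell and 2 rose, with a median of -0.45 (6 and 1 without E12.5 replicate 3, 4 falls without E12.5 replicate 2). Shox2, a homeobox gene of the proximal limb, measured 130.5, 103 and 129.9 CPM at E11.5 and 86.6, 67.5 and 83.3 CPM at E12.5 (log2 change of -0.62 ± 0.12 SE with edgeR, adjusted p = 0.00397), a call lost with all 12 libraries in 1 fit (adjusted p = 0.0506, edgeR). Irx3, which marks anterior and proximal progenitors, measured 17.1, 46.3 and 34.7 CPM at E11.5 and 8.13, 8.24 and 11.1 CPM at E12.5 (log2 change of -1.84 ± 0.39 SE with edgeR, adjusted p = 0.0130), a call lost without E12.5 replicate 2 (adjusted p = 0.0628, edgeR) or with limma voom (0.0802). Aldh1a2, an enzyme that makes retinoic acid, measured 50.8, 34.9 and 20.5 CPM at E11.5 and 121, 165 and 162.9 CPM at E12.5 (log2 change of 2.08 ± 0.36 SE with edgeR, adjusted p = 0.00849), and Cyp26b1, which degrades it, measured 353, 270.2 and 339 CPM at E11.5 and 214, 206 and 176 CPM at E12.5 (log2 change of -0.69 ± 0.11 SE with edgeR, adjusted p = 0.00202). At E11.5 replicate 1 was the highest library for Aldh1a2 and replicate 3 the lowest.

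The genes with the largest rises and falls included some that carry a caution. Most of the top rises were muscle genes given above, with Mybph, a myosin-binding protein, at 6.84, Gjd4, a gap junction gene, at 7.07 and Prr32 at 7.15. Ndufs5, a subunit of respiratory complex I, went from 2 to 456 fragments. Pet117, a gene of cytochrome oxidase assembly, and Asb17os, an antisense transcript, fell to 0 from 173 and 97 fragments, at least 28.0-fold and 15.7-fold lower when the E12.5 libraries are set to a floor of 3 fragments over the group. These 3 are uncertain: Asb17os is antisense and the strand setting is not given, and whether fragments of Ndufs5 and Pet117 were shared with other genes was not tested. In the wild type the log2 fold change of Ndufs5 was -0.48.

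Among the largest falls, Gbx2, a homeobox gene, measured 1.23, 5.83 and 5.02 CPM at E11.5 and 0.0437, 0.0651 and 0.0432 CPM at E12.5 (log2 change of -6.19 ± 0.82 SE with edgeR, adjusted p = 0.000723). Lmx1a, a LIM homeobox gene, measured 2.84, 6.83 and 3.81 CPM at E11.5 and 0.481, 0.423 and 0.432 CPM at E12.5 (log2 change of -3.33 ± 0.39 SE with edgeR, adjusted p = 0.000320), and Gpx2, a glutathione peroxidase of epithelia, measured 2.94, 5.45 and 5.56 CPM at E11.5 and 0.831, 0.228 and 0.475 CPM at E12.5 (log2 change of -3.22 ± 0.45 SE with edgeR, adjusted p = 0.000682). For these 3 genes E11.5 replicate 1 was the lowest of its stage. Igdcc3, an immunoglobulin superfamily gene, measured 21.1, 71.4 and 57.0 CPM at E11.5 and 9.27, 7.30 and 6.01 CPM at E12.5 (log2 change of -2.73 ± 0.53 SE with edgeR, adjusted p = 0.0125), a call lost without E12.5 replicate 2 (adjusted p = 0.0540, edgeR) or with limma voom (0.0795). Pax1, a gene of the sclerotome and limb girdle, fell from 2.94, 13.001 and 11.02 to 0.394, 0.684 and 1.82 CPM (log2 change of -3.23 ± 0.77 SE with edgeR, adjusted p = 0.0177), a call lost without E12.5 replicate 1 or 2 (adjusted p = 0.0509 and 0.0804, edgeR) or with limma voom (0.132).

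Lists that mark other cell types in the whole limb are set against the shares over all genes, 21.5% higher and 23.5% lower. In bulk RNA fewer cells of a type and less RNA per cell cannot be told apart. Red cell genes fell in 12 of 23 cases with no rise and a median of -1.39 (13 without E12.5 replicate 3, median -1.84), although their summed level overlapped between stages, at 5376, 10263 and 5806 CPM and at 4212, 5298 and 8042 CPM. Klf1, a regulator of red cell genes, measured 2.24, 6.25 and 4.23 CPM at E11.5 and 0.481, 0.489 and 0.994 CPM at E12.5 (log2 change of -2.70 ± 0.46 SE with edgeR, adjusted p = 0.00166), and Hemgn, an erythroid nuclear protein, fell by 4.45 on the log2 scale, a call lost with limma voom (adjusted p = 0.0859). Of the embryonic beta-like globins Hbb-bh1 measured 393, 1095 and 599 CPM at E11.5 and 129.7, 127 and 215 CPM at E12.5 (log2 change of -2.15 ± 0.47 SE with edgeR, adjusted p = 0.0178), a call lost without E12.5 replicate 2 (adjusted p = 0.0783, edgeR) or with all 12 libraries in 1 fit (0.0629), and Hbb-y measured 3338, 6285 and 3475 CPM at E11.5 and 2768, 3503 and 5482 CPM at E12.5 with overlap (log2 change of -0.16 ± 0.38 SE with edgeR, adjusted p = 0.766). Within a library the level of Hbb-bh1 was 11.8%, 17.4% and 17.2% of that of Hbb-y at E11.5 and 4.68%, 3.62% and 3.93% at E12.5. That ratio did not overlap between stages, while the sum of red cell RNA did. The 3 tested fetal and adult globins of the list went the other way. Their log2 fold changes were 0.43 to 0.95, with a median of 0.83, and none was called.

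Macrophage genes rose in 9 of 21 cases and fell in 1 (5 and 1 without E12.5 replicate 3), with summed levels of 50.1 to 59.5 CPM and 75.7 to 103 CPM. Cx3cr1, a chemokine receptor of tissue macrophages, measured 4.43, 5.38 and 4.90 CPM at E11.5 and 8.22, 8.57 and 9.42 CPM at E12.5 (log2 change of 0.83 ± 0.16 SE with edgeR, adjusted p = 0.00263), while Pf4, shared with platelets, fell by 0.96 on the log2 scale. Endothelial genes rose in 7 of 25 cases (4 without E12.5 replicate 3), against 21.5% of all genes, and none fell, with a median of 0.13. Pecam1, a marker of all endothelium, measured 46.1, 51.6 and 47.6 CPM at E11.5 and 62.2, 61.7 and 62.97 CPM at E12.5 (log2 change of 0.36 ± 0.067 SE with edgeR, adjusted p = 0.00231), and Prox1, of lymphatic endothelium, rose by 1.82. Schwann cell precursor genes rose in 7 of 14 cases with no fall. Sox10, their defining factor, measured 1.91, 3.004 and 1.31 CPM at E11.5 and 5.42, 6.65 and 12.7 CPM at E12.5 (log2 change of 1.98 ± 0.40 SE with edgeR, adjusted p = 0.00501), and Erbb3, the receptor for signals from axons, measured 16.8, 14.8 and 11.47 CPM at E11.5 and 33.2, 36.5 and 48.1 CPM at E12.5 (log2 change of 1.45 ± 0.18 SE with edgeR, adjusted p = 0.000599). Melanocyte genes rose in 3 of 5, and Dct lost its call without any 1 of 4 libraries (adjusted p from 0.0592 to 0.130, edgeR), with limma voom (0.0806) or with no filter on low counts (0.0551).

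Smooth muscle and perivascular genes rose in 5 of 12 cases, with 1 tested only through E12.5. Of the 8 above the filter's floor in all 6 libraries, 4 rose. Acta2, the smooth muscle actin that early skeletal muscle also makes, measured 9.98, 7.62 and 4.34 CPM at E11.5 and 100.4, 102 and 172 CPM at E12.5 (log2 change of 4.07 ± 0.41 SE with edgeR, adjusted p = 0.00143), and Des, the filament protein of all muscle, rose by 3.28. Surface ectoderm genes rose in 9 of 30 cases and fell in 4, with a median of 0.13, against 21.5% and 23.5% of all genes. Krt5 and Krt14, the keratin pair of the basal layer, rose by 0.84 and 1.06, and Krt17 measured 8.54, 7.71 and 6.10 CPM at E11.5 and 31.6, 35.5 and 33.2 CPM at E12.5 (log2 change of 2.16 ± 0.13 SE with edgeR, adjusted p = 0.000102). Tfap2c, a transcription factor of early ectoderm, fell from 9.54, 12.9 and 10.3 to 4.98, 4.04 and 4.11 CPM (log2 change of -1.32 ± 0.18 SE with edgeR, adjusted p = 0.000504). Of 22 genes of trunk and organs 4 rose and 3 fell, near or below the shares of 21.5% and 23.5% over all genes. Among the falls is Shh, given above as a limb gene, and 1 gene was tested only through E12.5. The counts of this list were 8 and 3 without E11.5 replicate 1 or without E11.5 replicate 2, and 7 and 1 without E12.5 replicate 1. Afp, made by yolk sac and liver, measured 0.273, 0.738 and 0.607 CPM at E11.5 and 0.962, 35.9 and 4.54 CPM at E12.5, so that E12.5 replicate 2 stood out (log2 change of 4.69 with edgeR, adjusted p = 0.0574, named after its values were seen), and its part in other results was not tested.

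**Figure D4:**
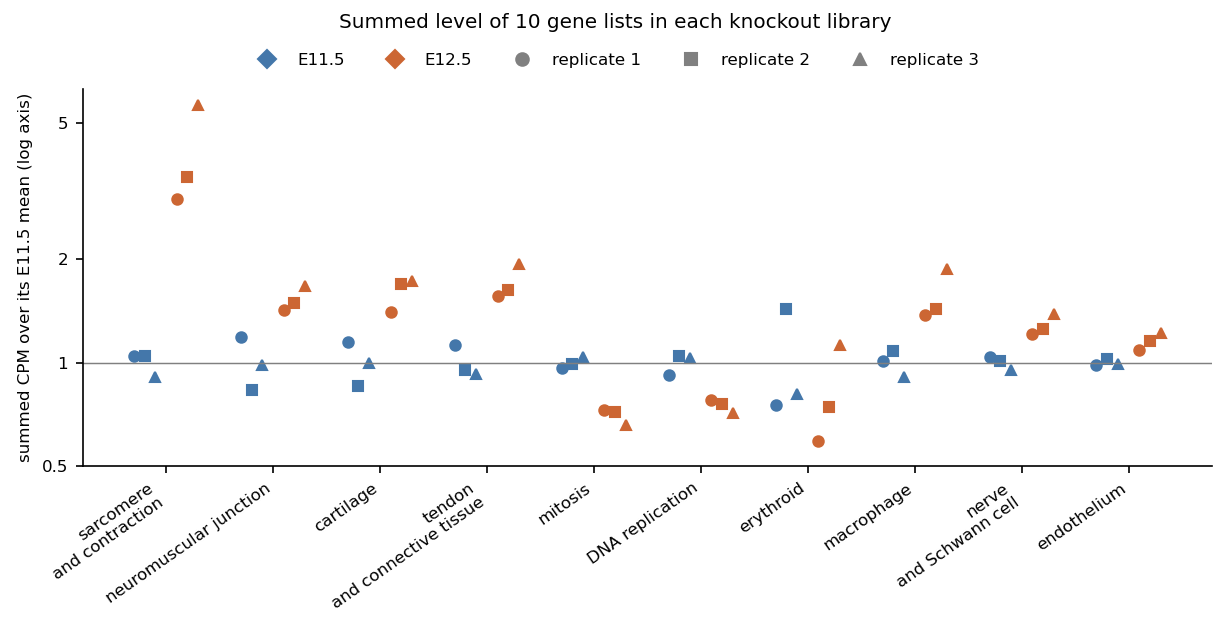
Summed CPM of 10 gene lists in each knockout library, divided by the list's mean over the 3 E11.5 libraries (log axis), with 1 symbol per replicate. Sarcomere sums rise most and spread most at E12.5, where replicate 3 is highest, mitosis and replication sums fall in all 3 libraries, and erythroid sums overlap between stages.

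Immediate early and stress genes, which respond to handling as well as to signals, rose in 10 of 20 cases and fell in 3. The shares over all genes were 21.5% and 23.5%. Jun, a subunit of AP-1, measured 75.4, 58.03 and 70.0 CPM at E11.5 and 96.5, 94.2 and 102 CPM at E12.5 (log2 change of 0.53 ± 0.094 SE with edgeR, adjusted p = 0.00195), Jund fell from 108, 122 and 114 to 51.9, 56.8 and 52.5 CPM (log2 change of -1.09 ± 0.070 SE with edgeR, adjusted p = 0.000102), and Hsph1, a heat shock protein, fell from 378, 555 and 511 to 196, 196 and 200.1 CPM (log2 change of -1.29 ± 0.13 SE with edgeR, adjusted p = 0.000390). Their part in the other results was not tested. Glycolysis and hypoxia genes rose in 9 of 23 cases and fell in 2. Ndrg1, which responds to low oxygen, measured 5.81, 5.605 and 5.58 CPM at E11.5 and 13.2, 13.7 and 14.2 CPM at E12.5 (log2 change of 1.27 ± 0.13 SE with edgeR, adjusted p = 0.000196), and Tpi1, a glycolytic enzyme, rose by 0.37. Ribosome and translation genes fell in 8 of 25 cases and rose in 3, against 23.5% and 21.5% of all genes. Among them were Npm1, a nucleolar chaperone, at -0.64 and Ncl, nucleolin, at -0.44. These 2 genes are named for their small adjusted p and not for size, and the lowest log2 fold change of the list was -1.82.

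Of 14 Notch genes 5 rose and 2 fell, against 21.5% and 23.5% of all genes. The ligands Dll1 and Dll4 rose by 0.80 and 0.64, the receptor Notch1 by 0.56 and Lfng, which modifies it, by 0.90, while the target Hey1 fell by 0.83 on the log2 scale. Of 27 axon guidance genes 12 rose and 2 fell. Epha3, a receptor of ephrins, measured 34.4, 31.3 and 20.6 CPM at E11.5 and 75.1, 76.9 and 94.8 CPM at E12.5 (log2 change of 1.51 ± 0.20 SE with edgeR, adjusted p = 0.00132), and Sema3d, a secreted semaphorin, rose by 1.08. Interdigit and digit genes had 2 of 12 higher and 2 lower, both below the shares of 21.5% and 23.5% over all genes. Ctsh, a lysosomal protease, stood at 1.001 and Dkk1, a Wnt inhibitor, at -0.92. Ctsh lost its call without E12.5 replicate 2 and Dkk1 without E12.5 replicate 3 (adjusted p = 0.0583 and 0.0525, edgeR), and Dkk1 with all 12 libraries in 1 fit (0.0589). The interdigit counts were 4 and 2 without E11.5 replicate 1, and 1 and 2 without E12.5 replicate 2.

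The other lists were recounted without E12.5 replicate 3. Hedgehog genes then had 5 rises and 4 falls, BMP and TGF-beta genes 15 and 4, Wnt genes 13 and 7, and posterior Hox genes 0 and 6. Perivascular genes had 5 and 0, Schwann cell and nerve genes 8 and 3, melanocyte genes 2 and 0, surface ectoderm genes 7 and 4, and trunk genes 4 and 3. Immediate early genes had 9 and 3, glycolysis genes 10 and 2, ribosome genes 3 and 7, Notch genes 4 and 1, axon guidance genes 8 and 1, and interdigit genes 2 and 1.

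The same day in the wild type gave 3846 calls among 14924 genes (25.8%), 2109 higher and 1737 lower. Across 14535 genes tested in both genotypes the log2 fold changes had a Pearson r of 0.80 and a Spearman rho of 0.78, as a description over genes, which are not independent replicates; the comparisons share no library. Called in both were 3061 genes, 46.6% of the knockout's calls and 81.7% of the wild type's, and 3059 of them had the same direction. The counts of calls of the genotypes are not compared further, since the spread between libraries enters them.

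**Figure D5:**
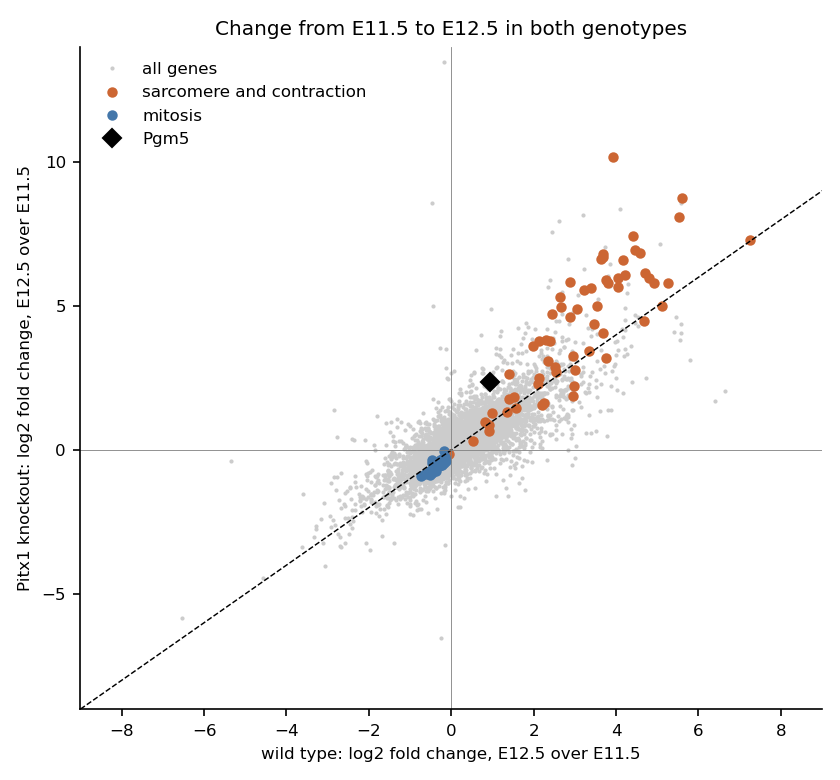
Log2 fold change from E11.5 to E12.5 in the knockout against that in the wild type for 14535 genes, with sarcomere genes, mitosis genes and Pgm5 marked and equal change as a dashed line. Most sarcomere genes lie above the line, mitosis genes form a tight group below 0 on both axes, and Pgm5 is the 1 gene whose difference passed.

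When the difference itself was tested over 15324 genes, 1 gene passed (0.00653%). Pgm5, a protein of adherens junctions in muscle related to phosphoglucomutase, measured 15.3, 20.2 and 17.4 CPM at E11.5 and 79.9, 98.6 and 91.8 CPM at E12.5 in the knockout and 47.1, 47.5 and 35.6 CPM at E11.5 and 76.6, 88.7 and 83.3 CPM at E12.5 in the wild type. Its rise was larger in the knockout, by 1.42 ± 0.18 (SE) on the log2 scale (adjusted p = 0.0357, edgeR). The E11.5 levels were lower in the knockout and the E12.5 levels lay near each other. The call was lost without any 1 of 8 of the 12 libraries, with adjusted p from 0.0510 to 0.221 (edgeR). Without adjustment 1585 genes had p below 0.05 (10.3%), and DESeq2 called 121, with 66 higher and 55 lower.

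No other listed gene passed the test of the difference with edgeR, and the lists are given by their values only. Sarcomere genes had a median log2 fold change of 4.48 over 61 genes in the knockout and 3.04 over 65 in the wild type. These medians cover different sets of genes. In the knockout 20 genes passed the filter only through E12.5, and the median was 3.09 for the 29 above its floor in all 6 knockout libraries. Of 61 tested in both genotypes, 47 rose more in the knockout. Myl1 began lower in the knockout, at 0.376, 0.334 and 0.117 against 2.62, 4.45 and 0.809 CPM in the wild type, and ended at 10.3, 11.2 and 21.3 against 19.1, 30.4 and 33.7 CPM. Among muscle regulators 15 of 28 had an unadjusted p below 0.05 for the difference, 14 of them with the larger value in the knockout, against 10.3% of all genes. Myod1 changed by 2.19 in the knockout and 0.85 in the wild type, with a difference of 1.33 ± 0.41 (SE, adjusted p = 0.374, edgeR; adjusted p = 0.0381, DESeq2). Myog and Pax7 had differences of 1.999 and 2.62 (adjusted p = 0.374 and 0.320, edgeR), and DESeq2 called that of Pax7 (adjusted p = 0.0299).

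Mitosis genes had medians of -0.47 and -0.31, with a difference above 0 for 3 of 39, and 13 had an unadjusted p below 0.05. Surface ectoderm genes had medians of 0.13 over 30 genes in the knockout and 0.70 over 31 in the wild type. Of 30 tested in both, 11 had an unadjusted p below 0.05, 10 of them lower in the knockout. Tbx4 changed by 0.17 in the knockout and by -0.52 in the wild type, a difference of 0.69 ± 0.11 (SE) that did not pass with edgeR (adjusted p = 0.108) and passed with DESeq2 (adjusted p = 0.000118). Tnmd differed by -4.69 (adjusted p = 0.374, edgeR; 0.00988, DESeq2). Sox9 changed by 0.70 and 0.01, with a difference of 0.69 ± 0.29 (SE, adjusted p = 0.460, edgeR). A p that misses the threshold does not show that the genotypes mature alike.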

How the data were processed

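RNA from whole hindlimbs was sequenced as stranded mRNA libraries. Per the submitters' processing notes, the authors used FastQC, TopHat2 and Cuffdiff on mm9; no version is stated there. Which annotation was counted, and with which strand option, is not given in the sources used here. The deposited tables, 1 a stage, list for each library and gene estimated counts (raw fragments, of which 1.81% are not whole) and RPKM, which the authors computed per gene length and depth, per the file headers. RPKM served only to choose named genes.

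The E11.5 and E12.5 tables were joined by gene (23929 names each). Left out were 2 date-like names that stand for 2 genes each and 6 genes that Cuffdiff failed on, which left 23919. Fragments were rounded and scaled by TMM over 12 libraries. Genes were filtered with filterByExpr (minimum count 10) and tested with edgeR 4.0.16 in R 4.3.3 by quasi-likelihood with the robust option, with Benjamini-Hochberg adjustment over all genes tested. The knockout was fitted on its 6 libraries, the wild type on its own 6, and the difference of the changes as an interaction over 12. The SE was derived from the log2 change and its F. Where a group had no fragments, a floor of 3 was used. DESeq2 1.42.0 and limma 3.58.1 were alternatives, beside other scalings, filters, thinning, a replicate block and leaving out each library.

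On simulated data over 14499 genes the knockout fit recovered 50% of 1.5-fold and 76% of 2-fold changes. For the difference, over 15115 genes, these were 25% and 61%. In each simulation 100 genes above a minimum mean count were changed by each fold, and all others had no change. In the data 45.0% of genes were called in the knockout, so these recovery rates hold for the simulated setting only. Named genes were those on a hand-written list, up to 5 members of each list with the smallest adjusted p, the 12 largest rises and 12 largest falls without overlap and with a mean of at least 1 RPKM in a knockout group, and those past the threshold for the difference. Genes outside this rule are marked as such, apart from Prrx1 and the genes whose promoters are shown. The members, lists and rules were chosen with earlier results of these data known. Some items are not reported here.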

Additional observations from a re-analysis of the deposited data

Results flagged for a closer look

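Pgm5 was singled out because its change over the day differed between the genotypes in a test of the difference itself. The change was larger in the knockout by 1.42 on the log2 scale, with an adjusted p of 0.0357 from edgeR over 15324 genes. The stages of Pgm5 did not overlap in the knockout, as for 57.9% of all genes tested, nor in the wild type. That separation of stages says nothing about the difference between genotypes. The adjusted p ranged from 0.00475 to 0.221 when 1 library was left out. It missed the threshold without knockout E11.5 replicate 3, without knockout E12.5 replicate 2 or 3, without wild-type E11.5 replicate 1 or 2, and without wild-type E12.5 replicate 1, 2 or 3, each left out alone. With the fit that has no robust step the adjusted p was 0.0531, and with DESeq2 it was 7.25e-10.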

How the results depend on the processing

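Knockout calls numbered 6600 and stayed between 5668 and 6718 under the other scalings, filters and tools, but tested against a 1.5-fold change they were 810. Leaving out 1 library gave 4930 to 6844 in the knockout, 2164 to 3467 in the wild type (3846 with all) and 0 to 5 for the difference (1 with all). Wild-type calls were 2313 without E11.5 replicate 1, 2164 without E11.5 replicate 3, 2260 without E12.5 replicate 2 and 2462 without E12.5 replicate 3. For the difference DESeq2 gave 121, the fit with no robust step 0 and the test against 1.5-fold 0. Against 1.5-fold 109 of the 207 named genes passed (196 in the main setting) and 181 listed genes (501 in the main setting). Same-numbered knockout libraries had correlations of deviations of -0.121, -0.0882 and -0.129, so the numbers do not pair them. With the replicate block 5675 genes were called in the knockout, 2896 in the wild type and 1 for the difference. Among genes given above, Acan, Tnmd, Aldh1a2, Igdcc3 and Hbb-bh1 lost their knockout calls with it (adjusted p = 0.103, 0.0622, 0.0518, 0.0684 and 0.0686, edgeR). Over 208 genes and 3484 recomputed values, 3308 kept direction and side, 153 lost the call (88 of them against 1.5-fold), 17 gained one and 6 changed sign. Those 6 belong to Myf5 (-0.16 to 0.44 on the log2 scale over the libraries left out, and -0.038 without E12.5 replicate 3), Scx (-0.11 to 0.030, and 0.011 without E12.5 replicate 2) and Hbb-y (-0.48 to 0.20, and 0.041 without E12.5 replicate 1), none of which passed. The cause was not tested. Depth limits genes of a few fragments, such as Col10a1 and Myot.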
